A study of Petromyzon marinus with 17 samples.

Results

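Non-methylated islands (NMIs) of adult muscle were compared with those of day 1 embryos of the sea lamprey, to ask which NMIs are kept, gained and lost between an early embryo and an adult somatic tissue. The 4 BioCAP libraries used were part of 12 with a peak list and 17 in the series. They were 2 replicates of adult muscle and 2 replicates of embryos at embryonic day 1, a stage of early cleavage. No treatment or genetic change is given for any sample. The muscle replicates came from a male and a female fish, and it is not stated how many embryos were pooled for a day 1 library or whether its replicates were separate clutches, so that p-values measure the spread between these libraries only. In each tissue, the bases covered in both replicate lists were taken as its NMIs, and stretches of muscle and day 1 that shared at least 1 bp were joined into merged NMIs. A merged NMI with bases of both tissues was named kept, one of muscle only gained, and one of day 1 only lost. This gave 149921 merged NMIs, beside 166796 when the NMIs of all 6 tissues of the series were merged in the same way.

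Most CpG sites of vertebrate genomes can carry DNA methylation, and NMIs (or CpG islands) are the CpG-rich stretches that escape it, many of them at promoters and other regulatory elements. In BioCAP, sonicated genomic DNA is incubated with a CxxC zinc finger taken from the human protein KDM2B, which binds CpG sites only when they are unmethylated, and the recovered DNA is sequenced. A peak of recovered DNA is one NMI, and its fold enrichment is the signal at the summit relative to the local background. Lamprey embryos also discard part of their genome from somatic cells in early development (programmed genome rearrangement), so that the germline holds sequences that adult muscle lacks. A BioCAP signal is the sum over many cells: unmethylated DNA in few cells and partly methylated DNA in all of them cannot be told apart, and a stretch without an NMI is one in which no peak was called. As no gene annotation of the petMar3 assembly was used, the tissues could not be checked against marker genes. Judged by shared bases (Jaccard index, the bases shared by 2 lists over the bases in either), the closest of the 11 other lists was the own replicate for each of the 4 libraries.

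Muscle lists held more NMIs, over more bases and at a higher fold enrichment, than day 1 lists. They held 140638 and 141334 NMIs in muscle, against 119911 and 117229 in day 1, or 140986 ± 492 and 118570 ± 1896 (SD, n = 2 each). These covered 80.1 and 77.9 Mb in muscle, against 63.3 and 64.4 Mb in day 1. The median fold enrichment was 10.5 and 10.6 in muscle, against 8.04 and 8.16 in day 1. In all of these measures both muscle lists lay above both day 1 lists, with differences of 22416 NMIs, 15.2 Mb and 2.47 in fold enrichment (exact permutation test, two-sided, p = 0.333 each, the smallest p that 2 libraries against 2 allow). The median width of an NMI was 446 and 432 bp in muscle, against 418 and 437 bp in day 1, and here the tissues overlapped (difference 11.5 bp, exact permutation test, p = 0.667).

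The day 1 lists were also the less sensitive ones. Peaks with a fold enrichment between 10 and 11 had a median −log10 p of 37.2 and 35.9 in muscle, against 19.9 and 19.6 in day 1, so that the same enrichment was scored with less certainty in the embryo. By the study's own mapping summary, both day 1 libraries had far fewer uniquely mapped read pairs than either muscle library. The lists themselves hold no read counts, and the depth behind a single NMI is unknown. For this reason the comparisons of lists, classes, bases, the other tissues, neighbours, runs, scaffolds and windows were repeated with lists of equal length, the 117229 NMIs with the highest −log10 q of each list. All other comparisons rest on the deposited lists only. How far depth contributes to the NMIs described here as gained cannot be told apart from methylation in these lists.

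Between the tissues, bases coincided less than between replicates. The Jaccard index was 0.867 between the muscle replicates and 0.693 between the day 1 replicates. The 4 pairs of a muscle and a day 1 list had 0.525, 0.550, 0.545 and 0.564, all below both replicate pairs. The mean of the replicate pairs exceeded that of the mixed pairs by 0.234, against −0.119 and −0.115 for the remaining ways of pairing the libraries (exact permutation test over 3 pairings, one-sided, p = 0.333, the smallest possible). With lists of equal length the difference was 0.234 as well.

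Most merged NMIs were kept. Both replicates of muscle shared 135103 NMIs and both of day 1 shared 106301 NMIs. Of the NMIs of muscle, 64.4% overlapped an NMI of day 1, whereas 85.2% of the NMIs of day 1 overlapped one of muscle. Among the 149921 merged NMIs, 86039 (57.4%) were kept, 48147 (32.1%) were gained and 15735 (10.5%) were lost, so that 3.06 NMIs were gained for each NMI lost. This ratio depended on the libraries used. A list that loses its partner enters whole, which enlarges its tissue by construction. Without day 1 replicate 1 there were 40533 gained and 21270 lost NMIs, and without day 1 replicate 2 41543 gained and 24193 lost. Without muscle replicate 1 there were 53048 gained and 13807 lost NMIs, and without muscle replicate 2 53645 gained and 14719 lost. No single NMI can be called different by a test, since for 2 lists against 2 Fisher's exact test gives no p below 0.333, and the classes are therefore descriptions. When 1 muscle list was compared with 1 day 1 list, gained NMIs outnumbered lost NMIs in each of the 4 pairs, by 2.05 to 2.37 times.

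Lists of equal length brought the classes closer to each other but left their order. Of 133700 merged NMIs, 77676 (58.1%) were kept, 33169 (24.8%) gained and 22855 (17.1%) lost, or 1.45 gained for each lost. The muscle replicates then still shared 111394 NMIs and the day 1 replicates 104929. A tissue whose replicates agree less keeps fewer NMIs even from lists of equal length. The order of gained and lost NMIs is therefore not independent of replicate agreement. Part of the added loss came from shortening the muscle lists: of the lost NMIs, 37.8% and 41.8% had a peak in the full lists of the muscle replicates. Of the gained NMIs, 14.5% and 18.4% had a peak in the full lists of the day 1 replicates. Day 1 replicate 2 was not shortened at all, and replicate 1 only from 119911 NMIs. These shares therefore cannot be set against those of the lost NMIs. The overlap that counted as kept was rarely marginal. A median of 395 bp was shared by the tissues in a kept NMI, and only 70 kept NMIs shared 50 bp or fewer. Just beyond this threshold, 87 gained NMIs held bases of both day 1 lists that did not coincide with each other, and 7 lost NMIs held such bases of both muscle lists.

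**Figure D1:**
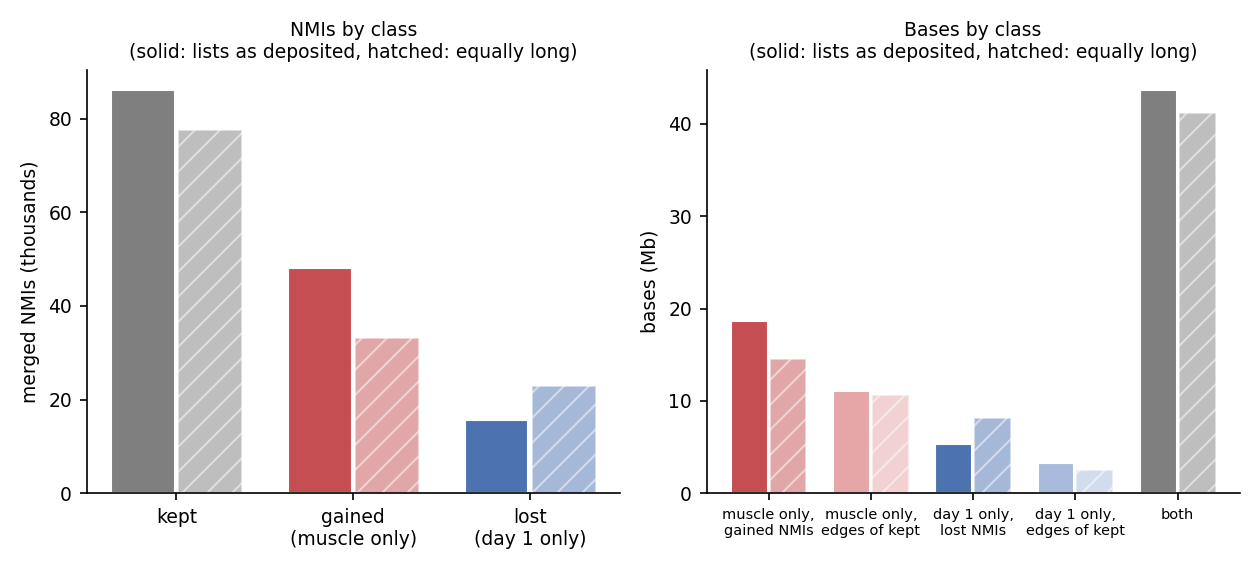
Left, number of merged NMIs in units of 1000 that were kept, gained (muscle only) or lost (day 1 only). Right, bases (Mb) that were covered in muscle only, in day 1 only or in both. Bars marked as edges of kept hold all bases of one tissue only within kept NMIs, also those between stretches. Solid bars are the lists as deposited and hatched bars are lists of 117229 NMIs per library. Gained NMIs exceeded lost NMIs in both settings, with 48147 against 15735 and with 33169 against 22855. In both settings the muscle replicates shared more NMIs than the day 1 replicates did.

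In bases, muscle and day 1 together covered 82.0 Mb in both replicates. Of these, 43.6 Mb (53.2%) were covered in both tissues, 29.7 Mb (36.3%) in muscle only and 8.66 Mb (10.6%) in day 1 only. The last value was 14.5 Mb without day 1 replicate 1 and 15.1 Mb without day 1 replicate 2, where the remaining day 1 list entered whole. Bases found in one tissue only were not all in gained or lost NMIs. Of the 29.7 Mb of muscle only, 18.7 Mb were in gained NMIs and 11.1 Mb in kept NMIs. Of the 8.66 Mb of day 1 only, 5.37 Mb were in lost NMIs and 3.28 Mb in kept NMIs. Within kept NMIs such bases lay at the edges or between stretches of the other tissue. With lists of equal length, 41.2 Mb were covered in both tissues, 25.1 Mb in muscle only and 10.7 Mb in day 1 only. Within kept NMIs these lists left 10.6 Mb of muscle only and 2.55 Mb of day 1 only.

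Gained and lost NMIs were narrow and kept NMIs were wide. The median width was 332 bp for gained NMIs, 294 bp for lost NMIs and 539 bp for kept NMIs, the last being the span of both tissues joined. Of the gained NMIs 37.3% were under 300 bp wide, as were 52.1% of the lost NMIs and 3.72% of the kept NMIs. With lists of equal length these shares were 17.8%, 47.9% and 1.65%, so that the share of narrow gained NMIs depended on the list length. The medians were then 375 bp for gained, 305 bp for lost and 563 bp for kept NMIs. At 1000 bp or more the classes stood the other way, with 749 gained NMIs (1.56%), 174 lost NMIs (1.11%) and 13084 kept NMIs (15.2%). The width of the NMI in its own tissue, before any joining, went with its fate in the same manner. Among muscle NMIs under 300 bp, 32.1% overlapped an NMI of day 1, and among those of 2000 bp or more 98.5% did. Among day 1 NMIs under 300 bp, 69.4% overlapped an NMI of muscle, and 97.8% of those of 2000 bp or more. In the deposited lists, a narrow NMI of muscle was thus shared less often than a narrow NMI of day 1. The widest NMIs were shared almost always in both directions. As the day 1 lists were less sensitive and these shares were not repeated with lists of equal length, the first difference is not read as a trait of the NMIs.

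**Figure D2:**
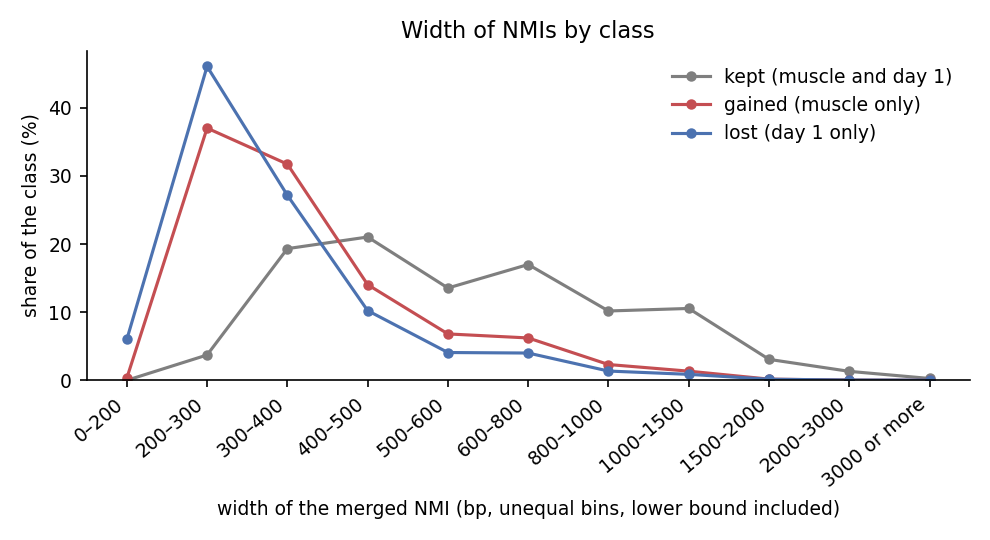
Share of each class (%) by the width of the merged NMI (bp) in bins of unequal size, for kept, gained (muscle only) and lost (day 1 only) NMIs of the lists as deposited. Gained and lost NMIs peak between 200 and 300 bp, where 37.0% of gained and 46.1% of lost NMIs fall, while kept NMIs extend to widths over 1000 bp.

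Gained and lost NMIs were also weaker than kept NMIs. In muscle, gained NMIs had a median fold enrichment of 7.84 and 7.53 in the replicates, and kept NMIs 13.7 and 14.3. In day 1, lost NMIs had a median fold enrichment of 6.08 and 5.87, and kept NMIs 9.76 and 9.91. When the NMIs of each tissue were ranked by their mean fold enrichment and cut into 10 equal groups, the share kept fell at each step. The strongest group of muscle NMIs was kept in 91.7%, and the weakest in 39.9%. For day 1 the strongest group was kept in 98.2% and the weakest in 56.3%. In these lists, strong exceptions were therefore more common on the muscle side. As the day 1 lists were less sensitive and these groups were not repeated with lists of equal length, this is not read as a trait of the NMIs. At a fold enrichment of 30 or more, 403 of 5837 muscle NMIs had no NMI in day 1, and 309 of these had no peak in either day 1 list. In day 1 at the same enrichment, 9 of 757 NMIs had none in muscle, of which 5 were without a peak in either muscle list.

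**Figure D3:**
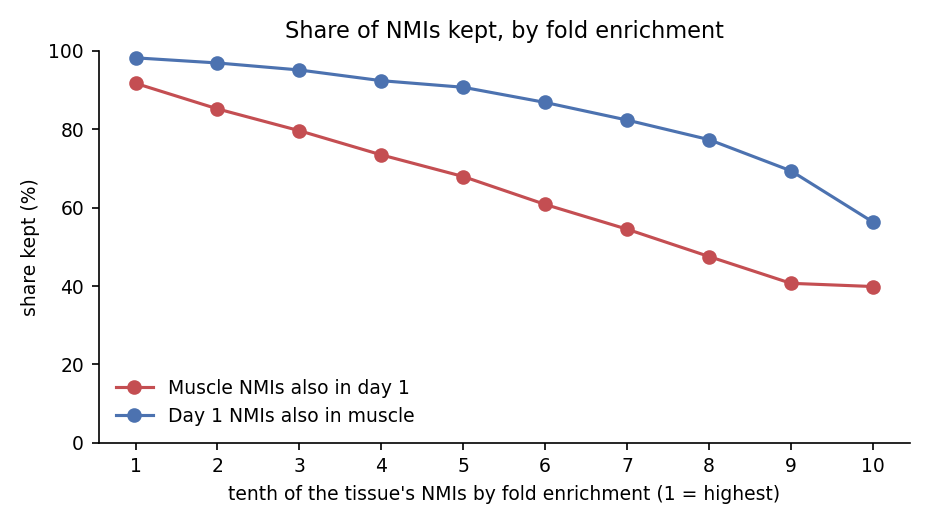
Share of the NMIs of each tissue (%) that were kept, in 10 groups of equal size ranked by mean fold enrichment over both replicates, from the highest (1) to the lowest (10). The share fell to 39.9% for the weakest muscle NMIs and to 56.3% for the weakest day 1 NMIs.

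Most gained and lost NMIs were absent from both lists of the other tissue. Of the gained NMIs, 34016 (70.7%) had no base in either day 1 list and 14044 (29.2%) had a base in one day 1 list. Of the lost NMIs, 12798 (81.3%) had no base in either muscle list and 2930 (18.6%) had a base in one. Where a gained NMI did have a peak in a day 1 list, that peak was weak, with a median fold enrichment of 5.08 in 6604 NMIs of replicate 1 and 5.11 in 7614 NMIs of replicate 2. The converse held for lost NMIs with a peak in a muscle list, which had a median of 4.14 in 1016 NMIs of replicate 1 and 4.36 in 1928 NMIs of replicate 2.

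The 8 libraries of brain, PBMCs (peripheral blood mononuclear cells, a fraction of white blood cells), sperm and day 2 embryos were not used to define the classes and give a separate view of them. Gained NMIs were called more often in the other adult somatic tissues than in sperm or day 2, but in all 8 libraries less often than kept NMIs. Gained NMIs were called in 73.6% and 78.3% in the brain replicates and in 57.9% and 59.4% in the PBMC replicates, against 38.1% and 44.0% in sperm and 11.2% and 12.2% in day 2. Every brain and PBMC library thus lay above every sperm and day 2 library, and the tissue means differed by 40.9 percentage points (exact permutation test over the 4 tissues, two-sided, p = 0.333, the smallest possible). Kept NMIs, given for scale, were called in 94.6% and 97.1% in brain, 85.1% and 86.3% in PBMCs, 97.3% and 98.2% in sperm, and 83.6% and 83.9% in day 2.

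Among the 4 tissues, lost NMIs were called most often in sperm, but there too less often than kept NMIs (97.3% and 98.2%). Lost NMIs were called in 37.8% and 52.0% in brain and in 18.9% and 24.3% in PBMCs, against 82.4% and 89.7% in sperm and 45.1% and 44.5% in day 2. Sperm was the highest of the 4 tissues, but day 2 lay within the range of brain, and the difference of −32.1 percentage points did not separate the tissues (exact permutation test, p = 0.667). For lost NMIs with no base in either muscle list the tissue means were 39.2% in brain and 17.8% in PBMCs, against 85.1% in sperm and 44.2% in day 2, and then both adult means lay below both others (−36.1 points, exact permutation test, p = 0.333). The day 2 lists were the shortest of the series, with 89979 and 90027 NMIs over 47.2 and 48.4 Mb. The brain lists covered the most bases, 94.8 and 110 Mb, which cutting lists by number of NMIs does not equalise. With all lists cut to equal length for the classes and to at most that length in the other tissues, the differences were 44.6 points for gained and −25.8 points for lost NMIs (exact permutation test, p = 0.333 for both).

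As gained and lost NMIs were weaker than kept ones, the same shares were read among NMIs of equal fold enrichment. Gained NMIs with a fold enrichment of 20 to 30 in muscle (n = 2821) were called in 95.3% and 95.5% in brain and in 82.0% and 81.1% in PBMCs, against 36.8% and 38.0% in sperm and 24.2% and 26.1% in day 2. Kept NMIs of that enrichment (n = 18879) were called in 97.4% or more in each of the 8 libraries. The strongest gained NMIs, at 30 or more (n = 403), were called in 24.8% and 25.8% in sperm, less than the weakest ones, under 5 (n = 8659), at 36.2% and 46.8%. Strong gained NMIs were therefore almost as common in brain, whose lists covered the most bases, as kept NMIs were. They were less common than kept NMIs in PBMCs, and much less common in sperm and day 2.

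For lost NMIs the order of the tissues depended on the fold enrichment in day 1. Those with a fold enrichment of 10 to 15 in day 1 (n = 1660) were called in 46.0% and 58.0% in brain and in 25.1% and 28.9% in PBMCs, against 96.4% and 97.7% in sperm and 88.6% and 88.6% in day 2. Kept NMIs of that enrichment (n = 24680) were called in 97.4% and 98.6% in brain, 90.5% and 90.7% in PBMCs, 99.5% and 99.7% in sperm, and 98.0% and 98.3% in day 2. At this enrichment both day 2 lists lay above both brain lists, but most lost NMIs were weaker. At a fold enrichment of 5 to 10 (n = 9577), lost NMIs were called in 38.2% and 52.6% in brain and 19.7% and 24.5% in PBMCs, against 86.8% and 92.8% in sperm and 47.2% and 46.6% in day 2, which lay within the range of brain. Under 5 (n = 4092), they were called in 32.3% and 47.7% in brain and 13.8% and 21.5% in PBMCs, against 64.6% and 78.3% in sperm and 17.2% and 16.9% in day 2, so that day 2 lay below brain. Kept NMIs under 5 were also called less often in day 2, in 36.4% and 37.8%. Sperm lay above brain and PBMCs in each of these 3 ranges.

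**Figure D4:**
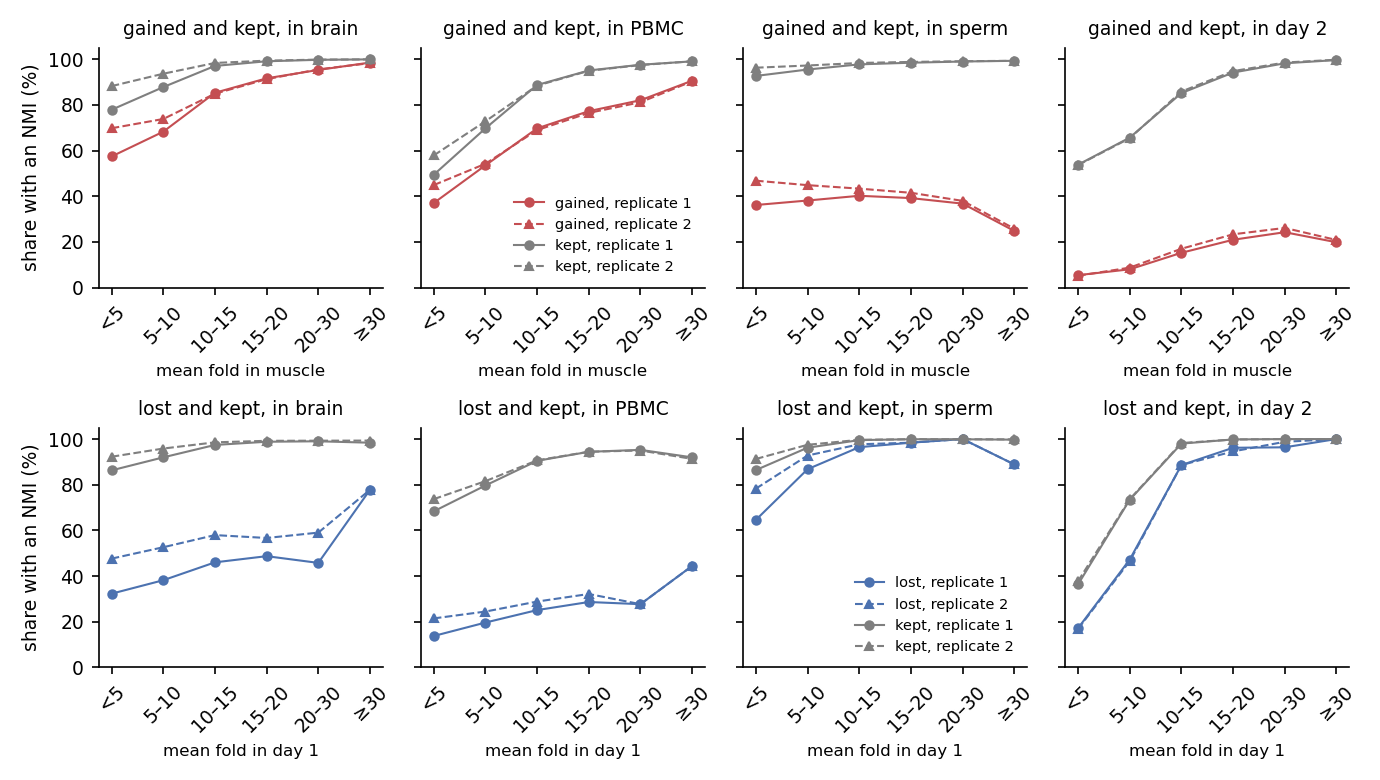
Share of NMIs (%) called in the brain, PBMC, sperm and day 2 libraries, by mean fold enrichment in muscle for gained and kept NMIs (upper row) and by mean fold enrichment in day 1 for lost and kept NMIs (lower row). Circles with solid lines are replicate 1 and triangles with broken lines replicate 2 of the tissue in the panel. Gained NMIs approach kept NMIs in brain and stay at 46.8% or below in sperm, whereas lost NMIs approach kept NMIs in sperm and, at a fold enrichment of 10 or more, in day 2. The highest bin of lost NMIs holds 9 NMIs.

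The combination of lists was then counted for each NMI. Both brain and both PBMC lists, but no sperm or day 2 list, held 10168 of the gained NMIs (21.1%), and these had a median fold enrichment of 10.5 in muscle. Kept and lost NMIs had this combination in 0.256% and 0.305%. Another 17782 gained NMIs (36.9%) were in both sperm lists, so that absence from day 1 did not always go with absence from sperm. In all 8 other lists there were 2327 gained NMIs (4.83%), which were strong in muscle, with a median fold enrichment of 14.7. The same 8 lists all held 67.7% of kept and 5.88% of lost NMIs. Muscle alone held 5758 gained NMIs, narrow and weak with medians of 292 bp and 6.32. Of the lost NMIs, 12853 (81.7%) were in both sperm lists and 5240 (33.3%) were in both sperm lists but in no brain or PBMC list. Presence in both sperm lists was more common among kept NMIs (97.2%). The second combination was rarer among kept (1.79%) and gained NMIs (2.27%). Both sperm and both day 2 lists without brain and PBMCs held 1987 lost NMIs (12.6%), with a median fold enrichment of 8.52 in day 1, whereas 88 gained NMIs (0.183%) and 0.966% of kept NMIs had this combination. Day 1 alone held 589 lost NMIs (3.74%).

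The longest and strongest gained NMIs showed the adult pattern one by one. The longest without a base in either day 1 list was 3290 bp long, at PIZI01000098v1:834464-837753 on petMar3. Its fold enrichment was 21.4 and 24.4 in muscle, 29.3 and 17.6 in brain, and 42.9 and 30.9 in PBMCs, and it had no peak in sperm, day 1 or day 2. The next 4 were 2878 bp (PIZI01000050v1:7406004-7408881), 2424 bp (PIZI01000013v1:14558370-14560793), 2337 bp (PIZI01000020v1:14436290-14438626) and 2257 bp long (PIZI01000033v1:5512127-5514383). All 5 had peaks in every muscle, brain and PBMC list, none had a peak in day 2, and only the last had peaks in sperm, with a fold enrichment of 9.90 and 9.55.

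Of the gained NMIs of 300 bp or more without day 1 bases, the strongest lay at PIZI01000053v1:380481-380987. Its fold enrichment was 47.9 and 49.1 in muscle, 22.2 and 19.4 in brain, and 65.4 and 43.2 in PBMCs. The second, 1017 bp long, lay 9898 bp beyond the end of the longest one, at PIZI01000098v1:847652-848668, and reached 47.8 and 44.1 in muscle. The third, at PIZI01000023v1:2283976-2285187, had 43.9 and 47.5 in muscle, but 5.42 and 5.59 in brain and 14.6 and 11.1 in PBMCs. None of these 3 had a peak in a sperm, day 1 or day 2 list, and each had one in every list of muscle, brain and PBMCs.

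The longest lost NMI was the mitochondrial sequence. It spanned chrM:70-15919, with no peak in either muscle list, against a fold enrichment of 8.45 and 8.98 in day 1. The paper reports depleted CpG methylation of the lamprey mitochondrial genome, in a figure whose tissues include muscle. Lost means here only that no peak was called in muscle. Why muscle had no peak there was not tested. Day 2 had 2 peaks there in each list, the strongest at 14.3 and 12.8, brain had 1 peak of 1.87 in replicate 1 only, and sperm and PBMCs had none. The following ones were 4793 bp (PIZI01007837v1:400-5192), 4241 bp (PIZI01006375v1:2754-6994), 2453 bp (PIZI01003775v1:11651-14103) and 2394 bp long (PIZI01000015v1:12415366-12417759). They had no peak in muscle, and peaks in both lists of day 1, day 2 and sperm. Adult peaks were present at 3 of them, with 3 in each brain list at PIZI01006375v1, 1 in brain replicate 2 at PIZI01003775v1, and some in every brain and PBMC list at PIZI01000015v1, where the fold enrichment was 10.1 and 10.7 in PBMCs and 12.8 and 6.26 in sperm. At the first of the 4, PIZI01007837v1, the fold enrichment was 7.91 and 4.84 in day 1 and 8.07 and 6.61 in day 2, above the 1.58 and 1.86 in sperm.

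The strongest lost NMI, of 956 bp at PIZI01000005v1:12722657-12723612, stood out in both embryonic stages. It had no peak in muscle, against a fold enrichment of 70.5 and 60.5 in day 1, with 47.7 and 51.4 in day 2. The other tissues had weak peaks there, with 2.45 and 2.88 in brain, 7.03 and 5.10 in PBMCs, and 8.91 and 8.45 in sperm. The second, at PIZI01000022v1:1381841-1382422, had no peak in muscle or PBMCs and 13.6 and 12.4 in brain, against 42.3 and 35.0 in day 1, 25.6 and 26.5 in day 2, and 17.4 and 21.4 in sperm. The third, of 1908 bp at PIZI01000050v1:6208275-6210182, had no peak in any muscle, brain or PBMC list, against 38.7 and 32.4 in day 1, 38.6 and 39.7 in day 2, and 17.7 and 14.9 in sperm. These 3 differed among themselves in the adult tissues, with peaks in 4, 2 and 0 of the 4 lists of brain and PBMCs.

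Kept NMIs were on average wider in muscle than in day 1. One stretch of muscle and one of day 1 made up 81072 of the kept NMIs (94.2%), whereas 4095 joined several day 1 stretches to 1 of muscle and 795 several muscle stretches to 1 of day 1. Over the 81072, the median width of the bases common to both replicates was 486 bp in muscle, against 414 bp in day 1. Taking common bases narrows NMIs more where replicates agree less, and their Jaccard index was 0.693 in day 1, against 0.867 in muscle. How much of the difference this makes up was not tested. The median log2 ratio of muscle to day 1 was 0.17, and muscle was the wider one in 73.4%. Muscle was at least 1.5 times as wide in 16.2%, and day 1 in 3.72%. The difference was smaller between single lists, over the NMIs of any class that overlapped one to one. Between 1 muscle and 1 day 1 list, the median log2 ratio was 0.10, 0.08, 0.09 and 0.06 in the 4 pairs, against 0.02 between the muscle replicates and −0.03 between the day 1 replicates. The 4 ratios lay above those of both replicate pairs, and were small.

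Summits were compared between single lists, over all NMIs that overlapped one to one, whatever their class. The median distance was 30 to 33 bp in the 4 pairs of a muscle and a day 1 list, which was no more than the 36 bp between the day 1 replicates and above the 14 bp between the muscle replicates. Fold enrichment was ordered less alike. Across NMIs, Spearman's rho of the fold enrichment was 0.461 to 0.559 in the mixed pairs (n = 86381 to 89294 NMIs), against 0.927 between the muscle replicates and 0.795 between the day 1 replicates, and is given as a description, as NMIs are not independent replicates.

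The extremes of width among kept NMIs were read one by one. The longest merged kept NMI spanned 9674 bp at PIZI01000016v1:13482165-13491838, with 9495 bp in muscle, against 8212 bp in day 1, and peaks in all 12 lists. The other 2 of the 3 longest spanned 7638 bp (PIZI01006937v1:1138-8775) and 7521 bp (PIZI01000015v1:3914185-3921705). The second of the 3 was also the one that widened most, to 7638 bp in muscle, against 2878 bp in day 1 in several stretches. Next came PIZI01004385v1:8404-13765, with 5362 bp in muscle, against 924 bp in day 1, and PIZI01000212v1:58470-62855, with 4386 bp in muscle, against 567 bp in day 1. The last was called as a single peak in each day 1 list, with a fold enrichment of 19.6 and 22.5 in muscle, against 17.6 and 11.3 in day 1. In the opposite direction, PIZI01010217v1:64-4433 covered 394 bp in muscle, against 4370 bp in day 1, at a fold enrichment of 1.28 and 1.24 in muscle, against 10.5 and 11.1 in day 1. PIZI01008286v1:2821-6800 had 618 bp in muscle, against 3980 bp in day 1, and PIZI01000028v1:5225391-5228553 had 239 bp in muscle, against 3145 bp in day 1. These 3 counted as kept with 239 to 618 bp left in muscle.

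Gained NMIs lay next to gained NMIs, and lost NMIs next to lost NMIs, more often than their shares of all merged NMIs. The nearest neighbour was a gained NMI for 50.9% of gained NMIs, beside 32.1% of all merged NMIs, and a lost NMI for 22.0% of lost NMIs, beside 10.5%. It was a kept NMI for 67.3% of kept NMIs, beside 57.4%. With lists of equal length, these shares were 46.7% for gained, 28.2% for lost and 66.6% for kept NMIs, beside 24.8%, 17.1% and 58.1%. No test was made of this, as neighbouring NMIs share their region. Gained NMIs also stood farther from kept ones. The median distance to the nearest kept NMI was 4352 bp for gained NMIs, 1712 bp for lost NMIs and 1317 bp for kept NMIs, and 14.8% of gained, 5.84% of lost and 4.26% of kept NMIs were over 20 kb away from the nearest kept NMI.

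Uninterrupted runs of one class were then counted, whose length depends on the share of that class (32.1% gained, 10.5% lost and 57.4% kept), so that the classes cannot be ranked by it. Uninterrupted runs of 5 or more held 13834 gained NMIs (28.7%) in 1740 runs, 322 lost NMIs (2.05%) in 53 runs, and 37313 kept NMIs (43.4%) in 5057 runs. The longest run of gained NMIs had 40 members, that of lost NMIs 14 and that of kept NMIs 32. With lists of equal length the longest runs of gained and of kept NMIs had 35 members each, and 24.5% of gained and 3.61% of lost NMIs were in runs of 5 or more.

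The 3 longest runs of gained NMIs were dense in muscle and almost bare in day 1 by the way they were chosen. Only the other tissues give a separate view of them. Brain and PBMC lists held many NMIs there, and sperm and day 2 lists held few. At PIZI01000023v1:4097505-4283655, 40 gained NMIs followed each other over 186151 bp, where the lists held 41 and 42 NMIs in muscle, against 1 and 1 in day 1. In the other tissues the same stretch held 25 and 30 NMIs in brain, 22 and 22 in PBMCs, 4 and 3 in sperm, and none in day 2. At PIZI01000098v1:582272-674449, 40 gained NMIs lay within 92178 bp, with 40 and 40 NMIs in muscle, against 1 and 0 in day 1. Brain held 28 and 35 there and PBMCs held 32 and 33, whereas sperm held 2 and 3 and day 2 held 1 and 0. At PIZI01000058v1:3090914-3236640, 39 gained NMIs spanned 145727 bp, with 38 and 41 NMIs in muscle, against 1 and 0 in day 1. PBMCs held fewer here, with 14 and 15, than brain, with 34 and 34. Replicates of each tissue gave like numbers in all 3 stretches.

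The longest runs of lost NMIs, poor in muscle and rich in day 1 by the same choice, were rich in sperm NMIs. At PIZI01000029v1:1896093-1922575, 14 lost NMIs spanned 26483 bp, with 1 and 0 NMIs in muscle, against 14 and 14 in day 1. Sperm held 15 and 16, day 2 11 and 10, brain 7 and 6, and PBMCs 1 and 1. Another run of 11 lay on the same scaffold at 1977609 to 2001885, and the 100 kb from 1900001 to 2000000 held 10 and 10 NMIs in muscle, against 29 and 35 in day 1. Its neighbours on the scaffold up to 2200000 had fewer NMIs in muscle than in day 1 too, with 9 and 9 against 19 and 14, and 12 and 10 against 23 and 21. The second longest was a run of 12 lost NMIs at PIZI01000126v1:411810-550324, over 138515 bp, with 2 and 1 NMIs in muscle, against 13 and 15 in day 1, and 15 and 20 in sperm.

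Scaffolds differed in how much they gained and lost. Merged NMIs lay on 4994 scaffolds, of which 148 had 50 or more and held 90.4% of all. Over these 148, the share of gained NMIs had a median of 32.8% and ranged from 12.1% to 77.6%, and the share of lost NMIs had a median of 9.41% and ranged from 1.25% to 37.7%. More NMIs were gained than lost on 144 of them and more were lost than gained on 3. With lists of equal length, 138 scaffolds had 50 or more merged NMIs, with more gained on 128 and more lost on 9.

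Scaffold PIZI01000191v1 had the highest gained share, 45 of 58 merged NMIs (77.6%), with 60 and 57 NMIs in muscle, against 17 and 18 in day 1. It was followed by PIZI01000204v1 (46 of 66), PIZI01000143v1 (33 of 57), PIZI01000098v1 (196 of 345) and PIZI01000128v1 (29 of 53). On each of the 5, both brain and both PBMC lists held more NMIs than both day 1 lists. Both sperm lists did so too on PIZI01000204v1, PIZI01000143v1, PIZI01000098v1 and PIZI01000128v1. As the 5 were chosen for few NMIs in day 1 beside muscle, a higher number than in day 1 is no separate result. PIZI01000098v1, the largest of them by NMIs, also carries the longest gained NMI, the second strongest and 1 of the longest runs. Along it the gain was uneven. From 600001 to 700000, 43 of 45 merged NMIs were gained, with 45 and 44 NMIs in muscle, against 2 and 2 in day 1, and from 1100001 to 1200000 only 13 of 43 were gained, with 41 and 41 NMIs in muscle, against 34 and 37 in day 1.

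The highest lost share was that of PIZI01000066v1, where 26 of 69 merged NMIs (37.7%) were lost, with 44 and 47 NMIs in muscle, against 71 and 63 in day 1. Sperm lists held 83 and 93 NMIs there, more than any other tissue. Next were PIZI01000112v1 (26 of 102), PIZI01000075v1 (12 of 51), PIZI01000190v1 (10 of 54) and PIZI01000092v1 (10 of 60). On PIZI01000190v1 and PIZI01000092v1, gained NMIs were still the more numerous, with 11 and 23.

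Gained and lost shares were also compared between separate lists by region. The genome was cut into windows of 1 Mb, and 847 windows held 50 or more merged NMIs. The gained share had a median of 32.7% (10.1% to 79.5%) and the lost share one of 9.09% (0% to 31.8%). Shares from the replicate 1 lists and from the replicate 2 lists of both tissues had a Pearson's r of 0.939 for gained and 0.861 for lost NMIs (Spearman's rho 0.921 and 0.824) across the 847 windows, as a description, since the windows are neighbours on shared scaffolds. Windows with a high gained share tended to have a low lost share (r = −0.369, and −0.419 with lists of equal length), to which the common denominator contributes. The highest gained shares were those of the first window of PIZI01000024v1, with 79.5% of 78 merged NMIs, and of PIZI01000191v1. The highest lost share, 31.8% of 220 merged NMIs, was between 8 and 9 Mb of PIZI01000016v1.

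**Figure D5:**
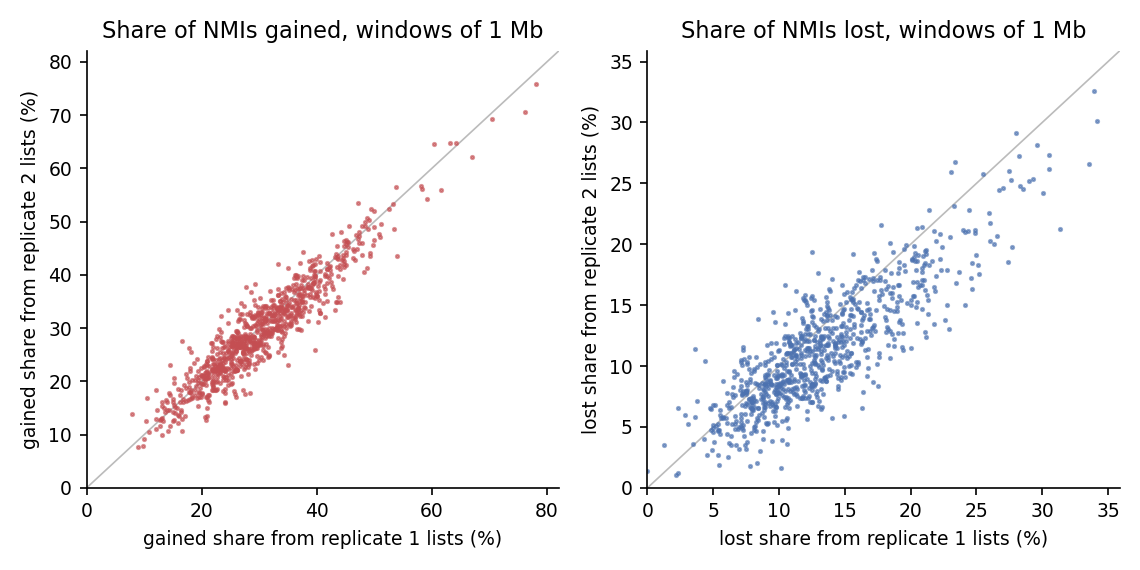
Share of merged NMIs (%) that were gained (left) and lost (right) in each of 847 windows of 1 Mb, from the replicate 1 lists of both tissues (horizontal axis) and from the replicate 2 lists (vertical axis). The grey line marks equal shares. Pearson's r was 0.939 for gained and 0.861 for lost NMIs, and Spearman's rho 0.921 and 0.824.

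Some scaffolds with few NMIs held those of one tissue only. On 562 scaffolds both muscle lists and neither day 1 list had NMIs, and on 564 both day 1 lists and neither muscle list did. Most of them held a single NMI common to both replicates, 431 of the first kind and 477 of the second. Of those of muscle, 290 had NMIs in all 4 brain and PBMC lists and 339 had none in sperm. However, 150 of them had NMIs in both sperm lists. Of those of day 1, 440 had NMIs in both sperm lists, 334 had none in brain and PBMCs, and 249 met both conditions. In all 4 brain and PBMC lists, 48 of the day 1-only scaffolds had NMIs. Only 7 of the muscle-only scaffolds had NMIs in both sperm lists and none in brain and PBMCs. The same counts were not made over all scaffolds, so that both kinds can be compared only with each other. Whether the sequence of these scaffolds was present in muscle DNA was not tested, as a peak list does not show it.

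The muscle-only scaffolds with most NMIs had 7 and 5 (PIZI01001542v1), 5 and 6 (PIZI01002457v1) and 6 and 5 (PIZI01002617v1) in the muscle lists, none in sperm, day 1 or day 2, and some in every brain and PBMC list. Among day 1-only scaffolds, PIZI01004468v1 held none in muscle, brain, PBMCs or sperm, against 10 and 10 NMIs in day 1 and 8 and 10 in day 2. Of the 16 nuclear scaffolds with named shares or NMIs of one tissue, it alone had NMIs in embryonic lists only. PIZI01000490v1 held none in muscle, brain or PBMCs, against 10 and 8 NMIs in day 1, 7 and 9 in sperm, and 6 and 5 in day 2. PIZI01003389v1 held none in muscle or PBMCs and 2 and 3 NMIs in brain, against 5 and 5 in day 1 and 2 in each sperm and each day 2 list.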

How the data were processed

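BioCAP peak lists of 2 muscle and 2 day 1 libraries were compared, and 8 lists of brain, PBMCs, sperm and day 2 embryos served as a separate readout. Groups were taken from the sample labels. In the authors' processing, reads went through Trimmomatic, Bowtie2 (to petMar3) and Picard (duplicates out), and MACS2 made one peak list per library. With which options MACS2 ran, and whether against an input, is not given in the sources used here. The 5 input samples were not analysed. Each peak of the deposited lists has a fold enrichment, which is a ratio to local background, its −log10 p-value and −log10 q-value, and a score that was left unused. The smallest −log10 q in the 4 lists was 1.30. Equally long lists were made by −log10 q, since fold and q-value belong to one list and were compared across lists only as described.

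Intervals were intersected within a tissue and joined across tissues with a minimum overlap of 1 bp, in Python 3.11.15 with NumPy 2.4.6. Differences between libraries or tissues were tested with exact permutation tests (SciPy 1.17.1). Equal lists in other tissues held the best 117229 NMIs or, in shorter lists, all NMIs. The functions were tested on simulated lists with planted classes. Positions are given from 1. Sequences, CpG density and genes were not analysed, for want of a petMar3 genome and annotation among the references used here.

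The NMIs named are the 5 longest gained and 5 longest lost with no base in the lists of the other tissue, the 3 strongest of each of 300 bp or more, the 3 longest kept, and the 3 kept with the largest gain and the 3 with the largest drop of width. The scaffolds named are the 5 with the highest gained and the 5 with the highest lost share among those with 50 or more merged NMIs, the 3 with most NMIs of one tissue only, and those of the 3 longest runs of each class. The classes, rules and alternatives were chosen with earlier results of these data known. PIZI01000098v1 and PIZI01000029v1 were also followed in steps of 100 kb after their values were seen. Alternatives were a −log10 q of 5 or 10, lists of equal length by −log10 q or by fold enrichment, bases of either replicate, an overlap of 50%, joining over 100 bp, leaving out each library, and, chosen after seeing the data, lists of 60000 and NMIs with no base in either list of the other tissue.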

Additional observations from a re-analysis of the deposited data

How the results depend on the processing

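Of 99 alternative values, 64 stayed within the limits set for them, 33 moved and 2 changed sign. Gained NMIs exceeded lost NMIs under each alternative run, but the number of lost NMIs depended on the lists. It was 15735 as reported, 5654 with a −log10 q of 10 or more, 23866 with lists of equal length by fold enrichment, and 24814 with bases of either replicate. Leaving out a library gave 13807 to 24193 lost NMIs, the highest without day 1 replicate 2, and 40533 to 53645 gained and 86175 to 92653 kept NMIs. Kept NMIs numbered 52045 with a −log10 q of 10 or more, and lists of 60000 gave 35073 kept, 19746 gained and 14338 lost NMIs. With lists of 60000, 63.4% and 67.7% of gained NMIs had a peak in the full lists of day 1 replicates 1 and 2. Of the lost NMIs, 81.0% and 82.9% had one in the full lists of muscle replicates 1 and 2, so that most of both classes came from the cut. Kept bases were 40.4 Mb and 31.9 Mb with a −log10 q of 5 and of 10 or more, 41.2 Mb and 40.6 Mb with equal lists by −log10 q and by fold enrichment, and 58.3 Mb with either replicate. In the same order, bases of muscle only were 31.9, 35.0, 25.1, 25.2 and 26.4 Mb, and bases of day 1 only were 7.15, 4.94, 10.7, 11.3 and 17.1 Mb. Without one library, kept bases were 44.4 to 49.9 Mb, bases of muscle only 23.5 to 35.8 Mb, and bases of day 1 only 7.64 to 15.1 Mb, of which 14.5 Mb without day 1 replicate 1 and 15.1 Mb without day 1 replicate 2. A list that loses its partner then enters whole, which enlarges that tissue by construction. An overlap of 50% and joining over 100 bp do not alter bases and gave no value for them. The difference in median width, 11.5 bp, became −13.5 bp with a −log10 q of 5 or more and −55.5 bp with 10 or more, and the cause was not tested. Replicate numbers did not pair the libraries (mean Jaccard index 0.545 for equal and 0.547 for different numbers). A replicate block left the differences at 22416 NMIs, 15.2 Mb and 11.5 bp. Blocks that hold both tissues alike cannot change a difference of means. These values are counted among the 64, but show no stability. The lists hold no counts, so that depth limits the gained NMIs by an unknown amount.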
